A study of Homo sapiens with 12 samples.

Results

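The 42 genes described here encode the proteasome and the factors that build and control it. They are the 14 subunits of the 20S core, 18 subunits of the 19S cap, the activators PSME3 and PSME4, the inhibitor PSMF1, the 4 core-assembly chaperones POMP, PSMG1, PSMG2 and PSMG3, the deubiquitinases UCHL5 and USP14, and the transcription factor NFE2L1. They are listed by gene name, with no threshold on a measured value, and were matched by Ensembl ID with the version removed. All 42 were among the 20015 genes counted, and all 42 passed the low-count filter that left 11323 genes for testing.

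RNA was sequenced from HT29 cells, an established human colorectal adenocarcinoma line, that express the Cas9 nuclease and had been transduced with a lentiviral guide RNA. The 4 groups were QRICH1 KO cells (QRICH1-targeting guide) with tunicamycin (Tm), QRICH1 KO cells with DMSO, WT cells (non-targeting guide) with Tm, and WT cells with the solvent DMSO, with 3 biological replicates each per the series design text. Tm was given at 0.3 µg/ml for 14 h. It blocks N-linked glycosylation, so that unfolded proteins collect in the endoplasmic reticulum (ER). Every group carried Cas9 and a guide, so no group is an unmodified line, and whether the QRICH1 KO cells are a clone or a pool is not given in the sources used here.

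The proteasome is the protease that degrades most ubiquitin-tagged proteins, including misfolded ER proteins that are drawn back into the cytosol. The 20S core is a barrel of alpha rings, which gate its entry, around beta rings, which hold the proteolytic sites, and the 19S cap binds the ubiquitin chain, removes it, and unfolds and feeds in the substrate. NFE2L1 (also called NRF1) is made at the ER membrane and is usually degraded at once, and when proteasome activity falls its processed form raises the transcription of most proteasome genes.

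Total counts were 6856736 to 17861844 per library. Levels are given as TMM-scaled counts per 1000000 (CPM), and a count of 0 allows a level of up to 3 counts, or 0.170 to 0.456 CPM (counting error only). Library 3 of QRICH1 KO Tm, with 14813 genes detected, and library 3 of QRICH1 KO DMSO, with 15340, stood apart from the others, which had 13124 to 14094. QRICH1 itself had 26.8, 22.4 and 19.2 CPM in QRICH1 KO Tm, 23.3, 24.1 and 24.8 CPM in QRICH1 KO DMSO, 30.8, 31.0 and 25.7 CPM in WT Tm, and 22.7, 31.1 and 35.0 CPM in WT DMSO. The groups overlapped and the gene was not called, with a log2 fold change of -0.36 under Tm (edgeR quasi-likelihood test, Benjamini-Hochberg adjusted p = 0.35) and -0.31 under DMSO (adjusted p = 0.58), and gene counts do not show whether the guide disrupted the protein. HERPUD1, an ER stress gene, checked the treatment, with a log2 fold change on Tm of 4.52 in QRICH1 KO cells and 4.99 in WT cells. These were the largest changes of the 4 check genes, QRICH1 included, of which 3 rose in each genotype. Under Tm 2 of the 4 were called lower in QRICH1 KO than in WT cells, beside 0.760% of all genes. For the interaction 0 of the 4 were called, and 3 had an unadjusted p under 0.05 (edgeR), beside 6.84% of all genes. All 9 epithelial markers were detected, CDX2 at no more than 1.44 CPM, and of 16 markers of other cell types 11 stayed under 1 CPM in every library, CD3E was at 0, and LYZ, listed as a blood marker, was abundant (the other 15 summed to 3.25 to 6.56 CPM).

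Tm moved a few proteasome genes, and the summed TMM-scaled level of the 42 genes differed between Tm and DMSO by less than the spread within groups, whereas their share of all counts was lower in every Tm library than in every DMSO library of the same genotype. In QRICH1 KO cells 3 of 42 genes rose and 2 fell at an adjusted p under 0.05 (edgeR), against 9.09% and 6.53% of all genes tested. In WT cells 5 of 42 rose and 3 fell, against 12.6% and 11.1% of all genes tested, so that in both genotypes the share of proteasome genes called was no larger than the background. PSMA3 and PSMA5 of the alpha ring and NFE2L1 rose in both genotypes, and PSMD1 and PSMD11 of the cap fell in both. UCHL5 and PSMF1 rose, and PSMC2 fell, in WT cells. None of the 42 was called between QRICH1 KO and WT cells under either treatment. Over all genes 0.406% were called higher and 0.760% lower under Tm, and 0.0177% and 0.0795% under DMSO, so few calls would be found in 42 genes at these shares.

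The largest of these changes was 1.57-fold, for NFE2L1 in QRICH1 KO cells. All 5 calls in QRICH1 KO cells were also calls in WT cells in the same direction, which is 100% of the QRICH1 KO list and 62.5% of the WT list, and over all genes 80.0% of the QRICH1 KO calls and 52.6% of the WT calls were shared. The median log2 fold change of the 42 genes was 0.036 in QRICH1 KO cells and 0.024 in WT cells, beside -0.0039 and -0.024 over all genes tested. Scaling by total counts, which moved the median of all genes to -0.11 in QRICH1 KO cells and -0.21 in WT cells, changed the split to 3 higher and 5 lower in QRICH1 KO cells and to 1 higher and 9 lower in WT cells. With upper-quartile factors the split was 2 higher and 3 lower in QRICH1 KO cells and 3 higher and 3 lower in WT cells, and with RLE factors it was 3 higher and 1 lower in QRICH1 KO cells. Without both QRICH1 KO libraries 3 it was 3 higher and 1 lower in QRICH1 KO cells, the lower one being PSMD3 in place of PSMD1 and PSMD11, and 7 higher and 5 lower in WT cells. Without 1 library at a time it was 2 to 4 higher and 0 to 4 lower in QRICH1 KO cells and 3 to 7 higher and 2 to 3 lower in WT cells, with 3 higher without WT Tm 2 or WT DMSO 2.

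**Figure D1:**
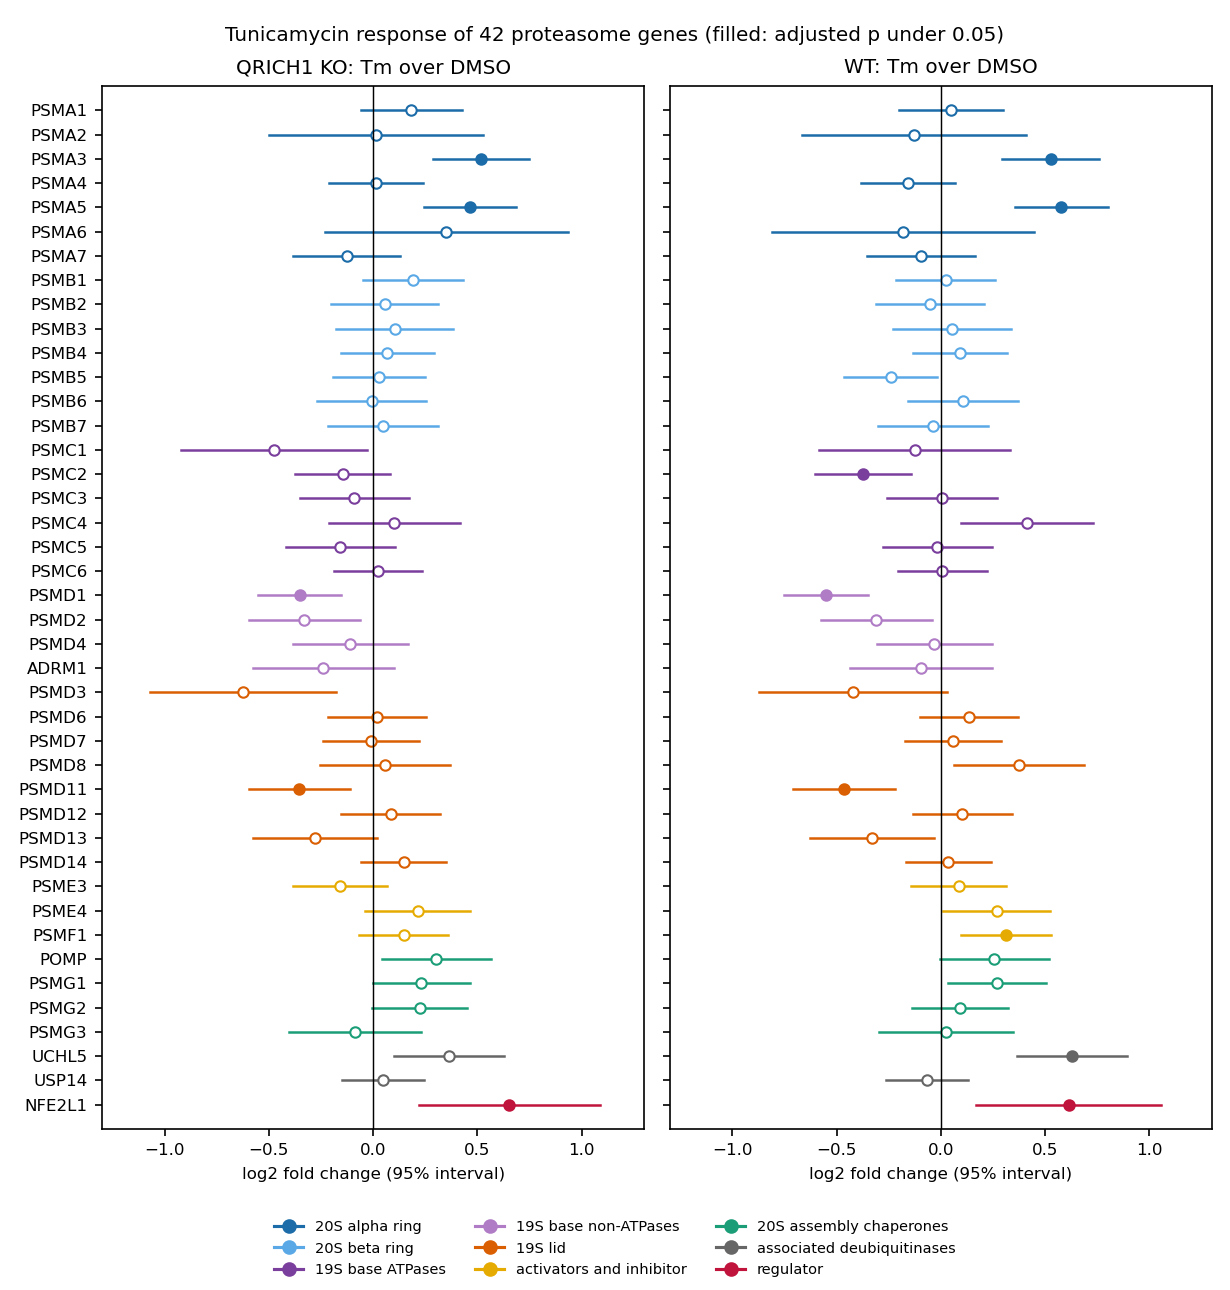
Log2 fold change of Tm over DMSO for each of the 42 genes (horizontal axis, with 95% intervals), in QRICH1 KO cells on the left and WT cells on the right. Colours mark the subcomplex and filled points an adjusted p under 0.05, and the filled points number 5 in QRICH1 KO cells and 8 in WT cells, with most open points close to 0.

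The promoters of the 5 subunit and deubiquitinase genes that lead these lists are shown because the genes moved in opposite directions and can be compared letter by letter. They are RefSeq sequences (GRCh38.p14) of 300 bases, from 250 before to 50 after the annotated start, on the strand of the gene. They lie at chr14:58244593-58244892 (plus strand) for PSMA3, chr1:109426399-109426698 (minus strand) for PSMA5, chr1:193059311-193059610 (minus strand) for UCHL5, 1 of its 3 entries, chr2:231056617-231056916 (plus strand) for PSMD1 and chr17:32444260-32444559 (plus strand) for PSMD11. Capitals mark matches on either strand to TGACNNNGC, the core of the element that NFE2L1 and its relative NFE2L2 bind, to TGATGNAA, the core of the element that ATF4 binds, and to CCAAT and CCACG, the parts of the ER stress response element. ATTGG in PSMA3 is CCAAT on the other strand.
PSMA3: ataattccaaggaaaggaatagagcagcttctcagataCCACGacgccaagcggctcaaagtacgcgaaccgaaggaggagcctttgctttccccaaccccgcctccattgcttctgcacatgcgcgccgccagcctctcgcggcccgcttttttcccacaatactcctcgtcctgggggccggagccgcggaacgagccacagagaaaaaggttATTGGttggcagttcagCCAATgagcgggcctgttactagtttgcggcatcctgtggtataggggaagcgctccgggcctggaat
PSMA5: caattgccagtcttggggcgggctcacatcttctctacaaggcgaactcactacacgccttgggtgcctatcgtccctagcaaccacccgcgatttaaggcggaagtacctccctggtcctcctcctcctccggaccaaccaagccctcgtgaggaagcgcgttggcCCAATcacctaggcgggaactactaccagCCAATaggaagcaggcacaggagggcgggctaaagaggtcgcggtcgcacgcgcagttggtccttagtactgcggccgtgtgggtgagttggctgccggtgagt
UCHL5: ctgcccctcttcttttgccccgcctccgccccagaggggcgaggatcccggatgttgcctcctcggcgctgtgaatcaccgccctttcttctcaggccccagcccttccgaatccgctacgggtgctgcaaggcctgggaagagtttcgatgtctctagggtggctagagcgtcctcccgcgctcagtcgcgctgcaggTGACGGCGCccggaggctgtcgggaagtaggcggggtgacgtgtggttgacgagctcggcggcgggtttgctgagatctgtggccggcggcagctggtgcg
PSMD1: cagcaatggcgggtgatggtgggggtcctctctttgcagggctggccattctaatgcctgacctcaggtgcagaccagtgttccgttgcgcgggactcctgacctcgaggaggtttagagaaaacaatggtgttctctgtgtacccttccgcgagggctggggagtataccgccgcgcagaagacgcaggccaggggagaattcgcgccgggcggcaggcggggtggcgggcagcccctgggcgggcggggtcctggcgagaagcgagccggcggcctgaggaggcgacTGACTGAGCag
PSMD11: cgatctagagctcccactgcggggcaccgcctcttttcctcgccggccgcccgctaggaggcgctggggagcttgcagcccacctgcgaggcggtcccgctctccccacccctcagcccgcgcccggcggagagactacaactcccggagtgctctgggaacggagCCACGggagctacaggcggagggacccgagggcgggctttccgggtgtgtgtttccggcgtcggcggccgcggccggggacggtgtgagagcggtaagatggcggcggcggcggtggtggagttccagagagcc

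Of the 3 genes shown that rose, UCHL5 held TGACNNNGC in the entry shown, at -51 from the start site of that entry, and PSMA3 and PSMA5 did not. The UCHL5 entry shown is the one with the lowest coordinate, and matches in its other entries are not listed here. Of the 2 that fell, PSMD1 held TGACNNNGC, at 39 past the start site, and PSMD11 did not. PSMA5 held CCAAT at -83 and -54, PSMA3 held it at -35 and -18 and CCACG at -212, and PSMD11 held CCACG at -84. No 2 matches overlapped, and TGATGNAA was found in none of the 5. CCAAT and CCACG were searched singly, and the joined ER stress response element was not searched for.

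Across the members, 36 of 42 had an entry in the promoter table, and PSMA7, PSMB1, PSMB6, PSMB7, PSMD4 and PSMG3 did not. TGACNNNGC was in 14 of 48 member entries (29.2%) and in 13.3% of all 35116 entries. Counted by gene, it was in 13 of 36 members (36.1%) and in 19.5% of the 9263 tested genes with an entry. The 13 were ADRM1, PSMA4, PSMB3, PSMC4, PSMC5, PSMD1, PSMD3, PSMD12, PSME4, PSMG1, PSMG2, UCHL5 and USP14, of which UCHL5 rose in WT cells and PSMD1 fell in both genotypes. CCAAT was in 19 of 36 members (52.8%) beside 43.8% of tested genes, CCACG in 15 (41.7%) beside 57.3%, and TGATGNAA in 1, PSMF1 (2.78%), beside 2.72%. A match describes these letters only, and binding was not measured.

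NFE2L1 (chromosome 17, 48048329 to 48061487, plus strand, hg38, GENCODE 29), the regulator of the family, rose in both genotypes. In QRICH1 KO cells it had 38.1, 39.9 and 25.8 CPM under Tm, against 28.0, 20.9 and 16.8 CPM under DMSO. In WT cells it had 31.4, 36.7 and 25.5 CPM under Tm, against 25.7, 17.4 and 19.2 CPM under DMSO. The third Tm library was the lowest of its group in each genotype and lay within the range of the DMSO libraries, so the groups overlapped. The log2 fold change was 0.65 ± 0.21 (SE; edgeR adjusted p = 0.039) in QRICH1 KO cells and 0.61 ± 0.21 (adjusted p = 0.043) in WT cells. The call was lost in 5 of 23 alternative fits in QRICH1 KO cells and in 8 of 23 in WT cells, including those without QRICH1 KO Tm 1 or 2 or QRICH1 KO DMSO 2 or 3 for QRICH1 KO cells, and those without WT Tm 1 or 2, WT DMSO 2 or 3, QRICH1 KO Tm 2 or QRICH1 KO DMSO 2 for WT cells. The log2 fold change stayed between 0.49 and 0.88 in QRICH1 KO cells and between 0.43 and 0.78 in WT cells.

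The alpha ring holds the 2 listed subunits of the core and cap that rose in both genotypes. PSMA5 (chromosome 1, 109399031 to 109426427, minus strand) had 485, 448 and 416 CPM in QRICH1 KO Tm, against 360, 317 and 303 CPM in QRICH1 KO DMSO. It had 405, 464 and 423 CPM in WT Tm, against 281, 281 and 303 CPM in WT DMSO. Every Tm library lay above every DMSO library in each genotype, and the increase was 1.38-fold in QRICH1 KO cells (log2 fold change 0.46 ± 0.11 SE, edgeR adjusted p = 0.0053) and 1.49-fold in WT cells (0.58 ± 0.11, adjusted p = 0.00050).

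PSMA3 (chromosome 14, 58244831 to 58272012, plus strand) also rose in both genotypes. It had 188, 200 and 186 CPM in QRICH1 KO Tm, against 137, 136 and 128 CPM in QRICH1 KO DMSO. In WT Tm it had 200, 199 and 209 CPM, against 131, 125 and 166 CPM in WT DMSO. The groups did not overlap in either genotype, although WT DMSO 3 stood well above the other WT DMSO libraries, and the increase was 1.43-fold in QRICH1 KO cells (0.52 ± 0.11, edgeR adjusted p = 0.0034) and 1.44-fold in WT cells (0.53 ± 0.11, adjusted p = 0.0018). The other 5 alpha subunits, PSMA1, PSMA2, PSMA4, PSMA6 and PSMA7, were not called, with log2 fold changes from -0.13 to 0.35 in QRICH1 KO cells and from -0.18 to 0.05 in WT cells. The alpha ring median was 0.18 in QRICH1 KO cells and -0.095 in WT cells.

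**Figure D2:**
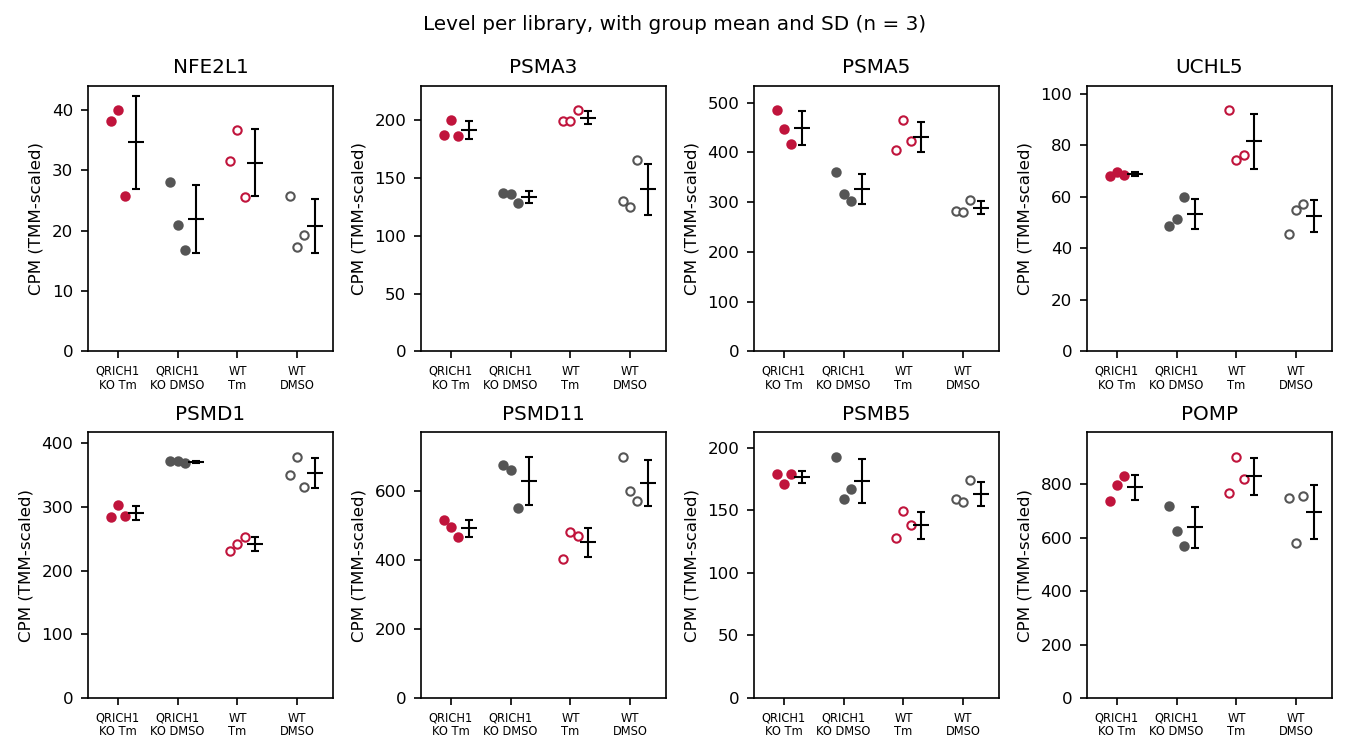
Level of 8 proteasome genes in each library (vertical axis, TMM-scaled CPM from 0), by group, with points for libraries and a cross bar for the group mean with SD (n = 3). PSMA3 and PSMA5 lie higher and PSMD1 and PSMD11 lower in every Tm library than in every DMSO library of the same genotype, while NFE2L1 overlaps.

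None of the 7 beta subunits was called in either genotype. Their log2 fold changes ran from -0.0067 to 0.19 in QRICH1 KO cells and from -0.24 to 0.11 in WT cells, with medians of 0.055 and 0.023. PSMB5, which carries the chymotrypsin-like site and is the main target of proteasome inhibitor drugs, had 179, 171 and 179 CPM in QRICH1 KO Tm, against 193, 159 and 167 CPM in QRICH1 KO DMSO. It had 127, 149 and 138 CPM in WT Tm, against 159, 157 and 174 CPM in WT DMSO. The WT groups did not overlap and the QRICH1 KO groups did, but neither difference passed the test (0.03 ± 0.10 SE in QRICH1 KO cells, edgeR adjusted p = 0.90; -0.24 ± 0.11 in WT cells, adjusted p = 0.11).

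PSMB6, the caspase-like subunit, had 144, 136 and 128 CPM in QRICH1 KO Tm, against 155, 135 and 120 CPM in QRICH1 KO DMSO, and 116, 155 and 138 CPM in WT Tm, against 139, 120 and 122 CPM in WT DMSO. PSMB7, the trypsin-like subunit, had 268, 263 and 213 CPM in QRICH1 KO Tm, against 256, 247 and 216 CPM in QRICH1 KO DMSO, and 188, 256 and 213 CPM in WT Tm, against 236, 212 and 227 CPM in WT DMSO. The groups overlapped for both genes in both genotypes. The 95% intervals of the log2 fold change were -0.27 to 0.25 in QRICH1 KO cells and -0.16 to 0.37 in WT cells for PSMB6, and -0.22 to 0.31 in QRICH1 KO cells and -0.30 to 0.23 in WT cells for PSMB7, which leave room for changes of up to about 1.3-fold. The structural subunits PSMB1, PSMB2, PSMB3 and PSMB4 had log2 fold changes between 0.06 and 0.19 in QRICH1 KO cells and between -0.05 and 0.09 in WT cells.

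Among the 18 listed cap subunits, those called in the reported fit, PSMD1, PSMD11 and PSMC2, were lower on Tm. SEM1, a lid subunit outside the list, was called higher in both genotypes. PSMC4 was called higher in WT cells in 13 of 23 alternative fits and PSMD8 in 5 of 23. PSMD1 (chromosome 2, 231056864 to 231172827, plus strand), a large scaffold of the base to which shuttle factors and deubiquitinases dock, had 284, 303 and 285 CPM in QRICH1 KO Tm, against 372, 372 and 369 CPM in QRICH1 KO DMSO. It had 230, 242 and 253 CPM in WT Tm, against 351, 379 and 331 CPM in WT DMSO. Every Tm library lay below every DMSO library in each genotype, and PSMD1 was 1.28-fold lower on Tm in QRICH1 KO cells (log2 fold change -0.35 ± 0.095 SE, edgeR adjusted p = 0.016) and 1.46-fold lower in WT cells (-0.55 ± 0.095, adjusted p = 0.00031).

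PSMD11 (chromosome 17, 32444261 to 32483318, plus strand), a scaffold subunit of the lid, had 514, 497 and 466 CPM in QRICH1 KO Tm, against 675, 661 and 550 CPM in QRICH1 KO DMSO. It had 404, 480 and 470 CPM in WT Tm, against 699, 599 and 571 CPM in WT DMSO. The groups again did not overlap, and PSMD11 was 1.28-fold lower on Tm in QRICH1 KO cells (-0.35 ± 0.12 SE, edgeR adjusted p = 0.045) and 1.38-fold lower in WT cells (-0.46 ± 0.12, adjusted p = 0.0065). Both calls in QRICH1 KO cells were lost without QRICH1 KO Tm 1, QRICH1 KO Tm 3, QRICH1 KO DMSO 1 or QRICH1 KO DMSO 2, which leaves 0 lower members, and without both QRICH1 KO libraries 3, where PSMD3 was the 1 lower member. That of PSMD11 alone was lost with RLE factors and without QRICH1 KO Tm 2, WT Tm 3 or WT DMSO 2 (1 lower member), while 4 members were called lower without QRICH1 KO DMSO 3.

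PSMC2 (chromosome 7, 103344254 to 103369395, plus strand), 1 of the 6 ATPases that unfold the substrate, fell in WT cells. It had 223, 214 and 190 CPM in QRICH1 KO Tm, against 260, 228 and 206 CPM in QRICH1 KO DMSO. In WT Tm it had 173, 187 and 171 CPM, against 237, 235 and 216 CPM in WT DMSO. The WT groups did not overlap (-0.37 ± 0.11 SE, edgeR adjusted p = 0.018), whereas the QRICH1 KO groups did (-0.15 ± 0.11, adjusted p = 0.41), and the WT call was lost without WT Tm 1, WT Tm 3, WT DMSO 1 or WT DMSO 2. PSMC1, PSMC3, PSMC5 and PSMC6 were not called in either genotype. PSMC4 in WT cells stood at 0.41 ± 0.15 (adjusted p = 0.053), and it was called higher with DESeq2, with limma-voom, with the replicate block, with only the groups compared and in 9 other alternative fits, at 0.24 to 0.55 over all 23.

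The 4 non-ATPase subunits of the base, PSMD1, PSMD2 and the ubiquitin receptors PSMD4 and ADRM1, had negative log2 fold changes in both genotypes, with medians of -0.29 in QRICH1 KO cells and -0.20 in WT cells, but of these only PSMD1 was called. PSMD2 stood at -0.33 ± 0.13 SE in QRICH1 KO cells (edgeR adjusted p = 0.088) and -0.31 ± 0.13 in WT cells (adjusted p = 0.088). Summed over the 4 genes, the level was 1166, 1139 and 988 CPM in QRICH1 KO Tm, against 1489, 1354 and 1179 CPM in QRICH1 KO DMSO, and 882, 1017 and 978 CPM in WT Tm, against 1202, 1184 and 1150 CPM in WT DMSO. The summed levels did not overlap between treatments in either genotype. The sum includes PSMD1, which was called by itself, and the smallest change of the 4 was -0.11 in QRICH1 KO cells and -0.030 in WT cells. The summed levels of the base ATPases and of the lid overlapped between treatments in both genotypes. Of the 8 listed lid subunits, PSMD3, PSMD6, PSMD7, PSMD8, PSMD12, PSMD13 and PSMD14, the zinc-dependent deubiquitinase, were not called in the reported fit. PSMD3 had the most negative value of all members in QRICH1 KO cells, -0.62 ± 0.21 (adjusted p = 0.055), with 75.8, 66.1 and 56.2 CPM under Tm, against a wide 138, 98.7 and 69.0 CPM under DMSO, so that the groups overlapped. It was called lower in 8 of 23 alternative fits, DESeq2 among them.

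Among the activators and the inhibitor, PSMF1 (chromosome 20, 1113263 to 1189415, plus strand), which inhibits the core in vitro, had 123, 117 and 108 CPM in QRICH1 KO Tm, against 100, 105 and 109 CPM in QRICH1 KO DMSO. It had 136, 125 and 122 CPM in WT Tm, against 107, 106 and 95.5 CPM in WT DMSO. The groups overlapped in QRICH1 KO cells (0.15 ± 0.10 SE, edgeR adjusted p = 0.37) and did not in WT cells (0.31 ± 0.10, adjusted p = 0.033), where the call was lost in 8 of 23 alternative fits, among them those without WT Tm 1 or 2 or WT DMSO 2 or 3. PSME3 and PSME4, which cap the core in the nucleus, were not called, at -0.16 and 0.21 in QRICH1 KO cells and 0.08 and 0.27 in WT cells.

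Of the 4 assembly chaperones none was called. POMP (chromosome 13, 28659104 to 28678925, plus strand), which completes the half-barrel of the core and is its first substrate, had 737, 798 and 831 CPM in QRICH1 KO Tm, against 721, 626 and 571 CPM in QRICH1 KO DMSO. It had 766, 904 and 822 CPM in WT Tm, against 750, 580 and 758 CPM in WT DMSO. The groups did not overlap in either genotype, but the differences did not pass the test (0.30 ± 0.12 SE, edgeR adjusted p = 0.11 in QRICH1 KO cells; 0.26 ± 0.12, adjusted p = 0.15 in WT cells). PSMG1, which pairs with PSMG2 to build the alpha ring, stood at 0.23 in QRICH1 KO cells (adjusted p = 0.17) and 0.27 in WT cells (adjusted p = 0.089). PSMG2 stood at 0.22 in QRICH1 KO cells and 0.09 in WT cells, and PSMG3 at -0.09 in QRICH1 KO cells and 0.03 in WT cells.

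UCHL5 (chromosome 1, 193012250 to 193060080, minus strand), a cysteine deubiquitinase held on the cap by ADRM1, had 68.0, 69.5 and 68.5 CPM in QRICH1 KO Tm, against 48.6, 51.5 and 60.0 CPM in QRICH1 KO DMSO. It had 93.6, 74.4 and 76.3 CPM in WT Tm, against 45.6, 54.9 and 57.4 CPM in WT DMSO. Every Tm library lay above every DMSO library in each genotype, and the change was called in WT cells (0.63 ± 0.13 SE, 1.55-fold, edgeR adjusted p = 0.0012) and missed the threshold in QRICH1 KO cells (0.36 ± 0.13, 1.29-fold, adjusted p = 0.056), where 5 of 23 alternative fits called it, namely DESeq2, limma-voom, the stricter count filter, and those without WT DMSO 1 or QRICH1 KO DMSO 3. The difference between these responses was -0.26, with a 95% interval of -0.64 to 0.11 (adjusted p = 0.84). USP14, the other cap-bound cysteine deubiquitinase, was not called (0.05 in QRICH1 KO cells and -0.07 in WT cells).

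Groups that do not overlap are a looser measure than the test. In QRICH1 KO cells the Tm libraries lay wholly apart from the DMSO libraries, in either direction, for 11 of 42 members, beside 32.4% of all genes. In WT cells they did so for 14 of 42 members, beside 37.5% of all genes. Together the 42 genes took 1.11%, 1.07% and 1.05% of the counts in QRICH1 KO Tm, against 1.21%, 1.16% and 1.12% in QRICH1 KO DMSO. They took 0.953%, 0.989% and 1.01% in WT Tm, against 1.08%, 1.09% and 1.17% in WT DMSO. On this unscaled measure every Tm library lay below every DMSO library in each genotype. After TMM scaling the groups overlapped, and the summed level was 11089 ± 700 CPM in QRICH1 KO Tm, against 11168 ± 1093 CPM in QRICH1 KO DMSO, and 10571 ± 856 CPM in WT Tm, against 10531 ± 496 CPM in WT DMSO (SD, n = 3 each), so each pair differed by less than the spread within its groups. In bulk samples, fewer cells with a given transcript and less of it per cell cannot be told apart.

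The cells labelled QRICH1 KO were set against WT cells within each treatment to ask whether the proteasome genes differ. Under Tm none of the 42 members was called, beside 0.406% of all genes higher and 0.760% lower. At an unadjusted p under 0.05 (edgeR) there were 4 of 42 members, beside 13.4% of all genes. Under DMSO none was called, beside 0.0177% and 0.0795% of all genes. At an unadjusted p under 0.05 there were 0 members under DMSO, beside 9.07% of all genes. DESeq2 and limma-voom also called no member in either treatment. The log2 fold changes of QRICH1 KO over WT had a median of 0.086 under Tm (0.0097 over all genes) and 0.092 under DMSO (0.0037 over all genes). They were positive for 29 of 42 under Tm (51.5% over all genes) and 34 of 42 under DMSO (50.6%). The members share the same libraries, so their signs are not independent. The 95% interval lay within 1.5-fold of no change for 40 of 42 genes under Tm, all but PSMA2 and PSMA6, and for 37 of 42 under DMSO, all but PSMA2, PSMA6, PSMC1, PSMD3 and ADRM1.

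**Figure D3:**
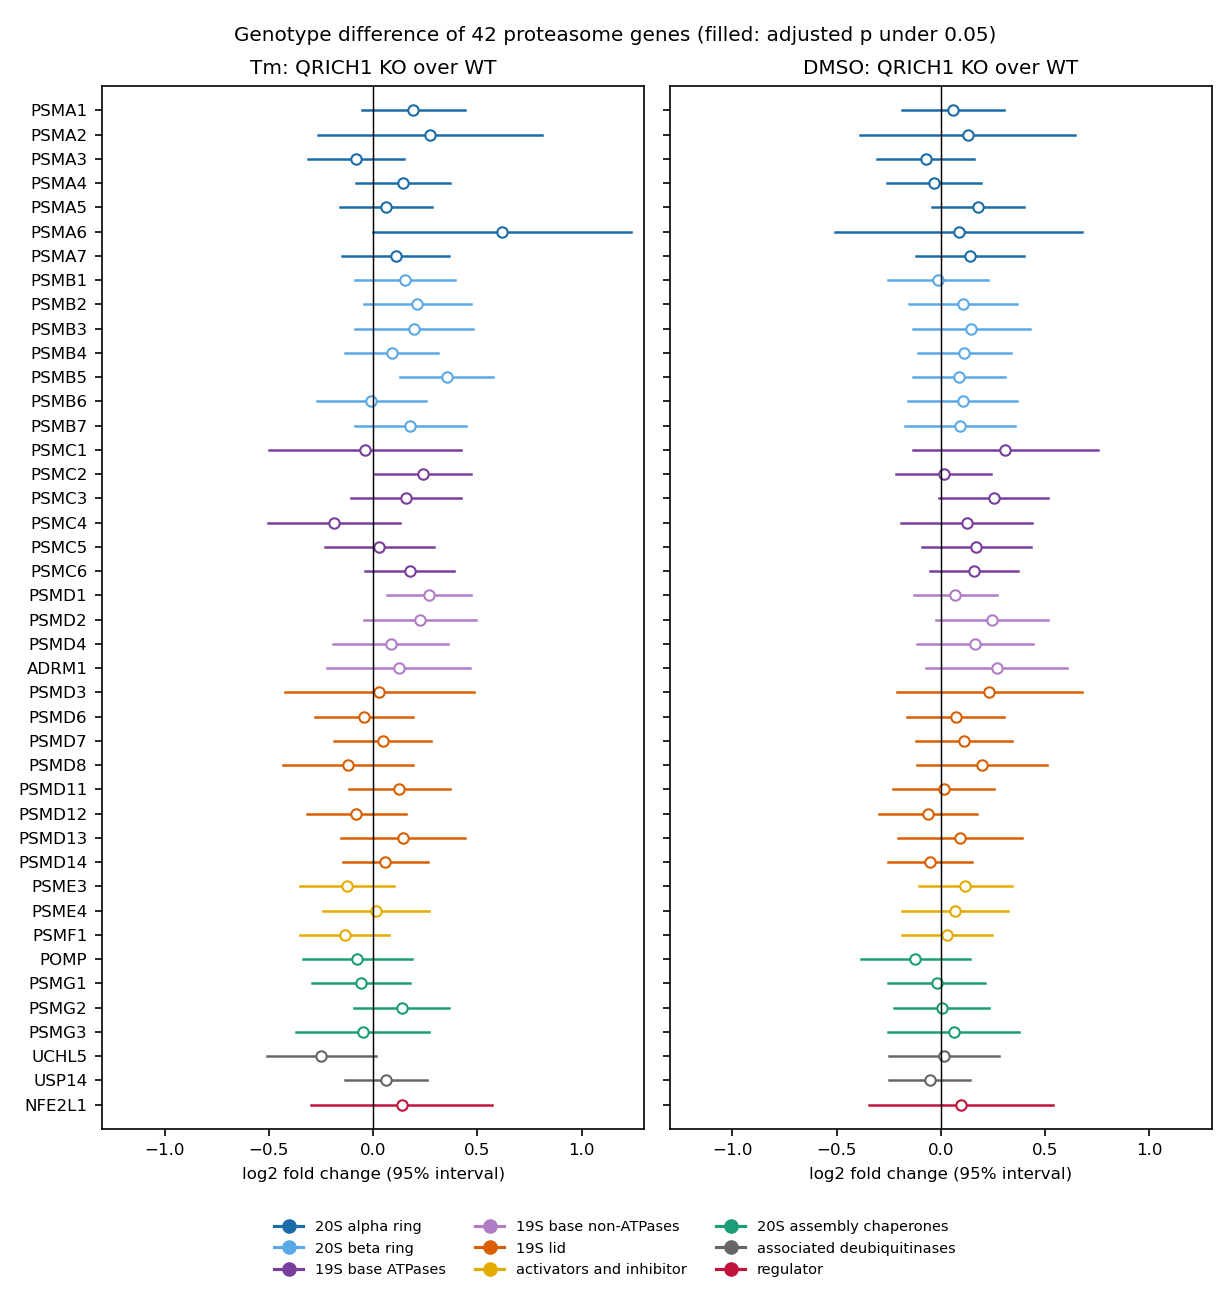
Log2 fold change of QRICH1 KO over WT for each of the 42 genes (horizontal axis, with 95% intervals), under Tm on the left and under DMSO on the right, with colours for the subcomplex. No point is filled, since no gene had an adjusted p under 0.05 (edgeR). Right of 0 lie 29 points under Tm (51.5% over all genes) and 34 under DMSO (50.6%), and these signs are not independent.

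Among the catalytic subunits the largest difference under Tm was that of PSMB5. Its 179, 171 and 179 CPM in QRICH1 KO Tm all lay above the 127, 149 and 138 CPM of WT Tm, with a log2 fold change of 0.35 ± 0.11 SE (edgeR adjusted p = 0.13). PSMD1, with 0.27 ± 0.095 (adjusted p = 0.21), and PSMC2, with 0.24 ± 0.11 (adjusted p = 0.35), likewise lay higher in every QRICH1 KO Tm library than in every WT Tm library without passing the test. In all, the QRICH1 KO Tm and WT Tm libraries lay wholly apart, in either direction, for 9 of 42 members, beside 18.5% of all genes. Under DMSO the 2 genotypes lay wholly apart for 1 of 42 members, PSMC6, which was higher in QRICH1 KO, beside 13.5% of all genes.

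The interaction between genotype and treatment (response of QRICH1 KO cells minus response of WT cells) was called for no gene of the whole table by edgeR. At an unadjusted p under 0.05 there were 774 genes of 11323 and 0 of 42 members, and at an adjusted p under 0.05 limma-voom called 0 genes and DESeq2 46, none of them a member. Member values ran from -0.35 for PSMC1 to 0.53 for PSMA6, both low in counts, and for 33 of 42 the 95% interval lay within 1.5-fold of no difference. The responses of PSMF1, PSMC2 and UCHL5, called in WT cells alone in the reported fit, are thus not shown to differ between genotypes.

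Other genes of the pathway were followed as lists. Of 17 further proteasome genes 15 were tested, and PSMA8 and PSMB11, the testis and thymus forms, were at 0 in every library. In QRICH1 KO cells 2 rose on Tm and 0 fell, beside 9.09% and 6.53% of all genes, and in WT cells 3 rose and 0 fell, beside 12.6% and 11.1%. PSMD10 (gankyrin), a chaperone of the cap base, had 28.9 ± 2.42 CPM in QRICH1 KO Tm, against 20.3 ± 3.02 CPM in QRICH1 KO DMSO, and 34.4 ± 2.44 CPM in WT Tm, against 20.7 ± 1.60 CPM in WT DMSO (SD, n = 3 each). Its groups did not overlap, with log2 fold changes of 0.51 (edgeR adjusted p = 0.018) in QRICH1 KO cells and 0.74 (adjusted p = 0.00074) in WT cells. SEM1, the small lid subunit, rose by 0.40 (adjusted p = 0.036) in QRICH1 KO cells and 0.47 (adjusted p = 0.011) in WT cells, and the cap-associated thioredoxin TXNL1 rose by 0.42 in WT cells (adjusted p = 0.0042) and stood at 0.28 in QRICH1 KO cells (adjusted p = 0.059). The interferon-inducible catalytic subunits PSMB8, PSMB9 and PSMB10 stayed at 8.37 CPM or less in every library and were not called.

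The 16 tested genes of 17 that process, degrade or partner NFE2L1 were followed next. In each genotype 5 of the 16 (31.2%) rose on Tm and 0 fell, where 9.09% of all genes rose in QRICH1 KO cells and 12.6% in WT cells. SEL1L and SYVN1, the ER-membrane ubiquitin ligase that marks NFE2L1 and misfolded ER proteins, rose by 2.83 and 2.32 on the log2 scale in QRICH1 KO cells and by 3.32 and 3.05 in WT cells. OGT, a sugar transferase, rose by 0.76 in QRICH1 KO cells and 0.59 in WT cells, and MAFF, a small MAF partner, by 0.69 in WT cells. Named after their values were seen, VCP, the ATPase that extracts NFE2L1 from the membrane, rose by 0.43 in QRICH1 KO cells (edgeR adjusted p = 0.023) and 0.66 in WT cells (adjusted p = 0.00061), and FBXW7, a ligase adaptor, by 0.59 in QRICH1 KO cells (adjusted p = 0.030). The protease DDI2 and the deglycosylase NGLY1, which activate NFE2L1, were not called, at -0.02 and 0.015 in QRICH1 KO cells and -0.00061 and 0.21 in WT cells.

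Of 19 genes for ubiquitin, its activation and its delivery, 2 rose and 2 fell in QRICH1 KO cells, and 3 rose and 2 fell in WT cells, shares near the 9.09% and 6.53% of all genes in QRICH1 KO cells and the 12.6% and 11.1% in WT cells. ZFAND2A (AIRAP), a proteasome-binding stress protein, had 19.1 ± 0.956 CPM in QRICH1 KO Tm, against 5.97 ± 0.529 CPM in QRICH1 KO DMSO, and 25.0 ± 0.870 CPM in WT Tm, against 5.76 ± 1.49 CPM in WT DMSO (SD, n = 3 each). Its groups were far apart, at 1.68 ± 0.18 SE (edgeR adjusted p = 1.6e-06) in QRICH1 KO cells and 2.08 ± 0.18 (adjusted p = 7.4e-08) in WT cells. RPS27A, which yields ubiquitin and a ribosomal protein, rose by 0.46 in QRICH1 KO cells and 0.50 in WT cells, UBA1, the main ubiquitin-activating enzyme, fell by 0.32 in QRICH1 KO cells and 0.36 in WT cells, and ZFAND2B, a relative of ZFAND2A, rose by 0.54 in WT cells. In none of the 3 lists was a gene called between QRICH1 KO and WT cells or for the interaction.

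Levels of the 32 core and cap subunits were compared per kilobase of merged exons (GENCODE 29) in WT DMSO cells. PSMA6, at 0.475 CPM per kb, PSMA2, at 1.15, and PSMC1, at 2.06, were the 3 lowest, followed by PSMD6 at 7.62 and PSMA1 at 9.06, whereas the median of all 32 was 66.4 and PSMA7 was the highest at 720. Per kilobase of the longest coding transcript the 3 stayed lowest, at 2.85 for PSMC1 and up to 4.13 for PSMA2, PSMA1 came next at 19.6, and the other 28 had 35.8 to 1265. In TMM-scaled CPM, PSMA6 had 2.86, 3.65 and 2.75 CPM in WT DMSO and PSMA2 had 5.85, 7.12 and 5.43 CPM, so the low values were shared by the 3 libraries. PSMA6, PSMA2 and PSMC1 had some of the widest intervals in all comparisons.

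**Figure D4:**
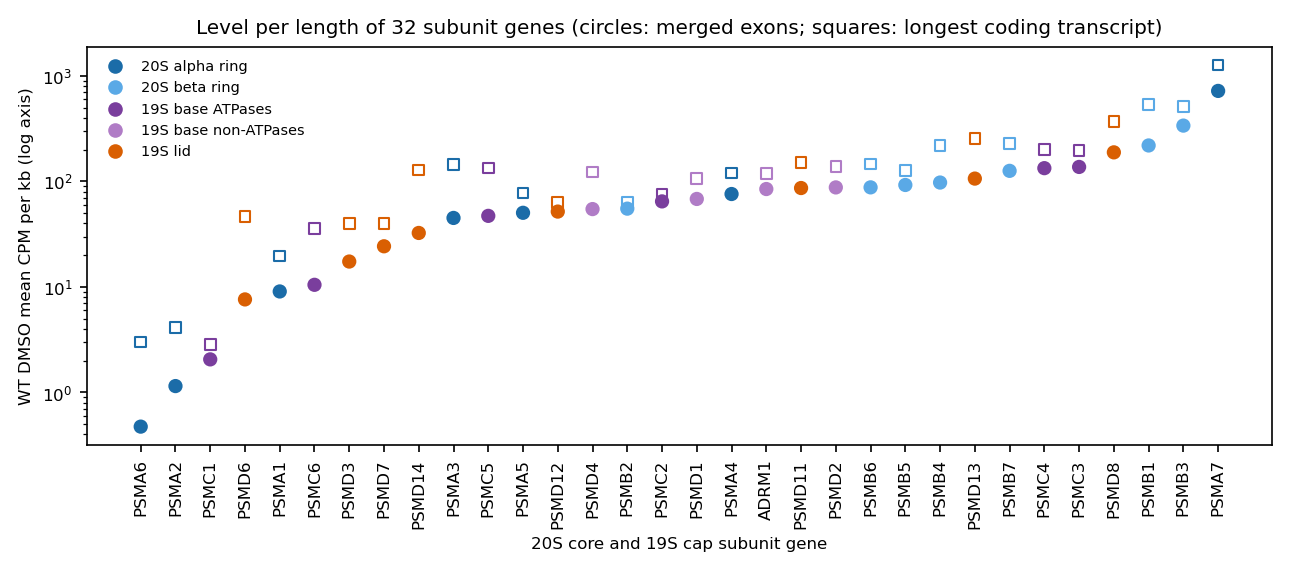
Mean level of the 32 core and cap subunits in WT DMSO cells (n = 3), as TMM-scaled CPM per kb on a log axis, with circles for merged exons, squares for the longest coding transcript and colours for the subcomplex. PSMA6, PSMA2 and PSMC1 lie far below the others on both measures, and PSMA7 lies highest.

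The 5 lowest genes per kb of merged exons all overlap other annotated genes, on either strand, since the libraries do not mark strand. This is not particular to them, as 20 of the 42 members overlap another gene. Among the other subunits, PSMD7 does so over 30.7% of its exons, PSMC5 over 19.5% and ADRM1 over 17.2%. PSMD6 overlaps genes on the other strand over 7.83% of its exons and has 0 named pseudogenes. Per kb of its longest coding transcript it had 46.5 CPM and ranked 8 from the lowest of the 32. PSMA1, PSMA2 and PSMA6 were the only subunits whose exons overlap a protein-coding gene on the same strand, over 24.7%, 14.6% and 14.1% of their merged exon length, and the overlapping genes AC018523.2, AC010132.3 and AL121594.1 had 0, 0 and 1 counts in all 12 libraries together. PSMC1 overlaps the antisense gene NRDE2 over 75.8% of its exons, and NRDE2 had 75 to 156 counts per library. GENCODE 29 names 13 pseudogenes after PSMC1, 4 after PSMA6 and 3 after PSMA2, and no more than 1 after any other core or cap subunit. How reads in shared exons or with several matches were counted is not given in the sources used here. The levels of PSMA1, PSMA2, PSMA6 and PSMC1 are thus uncertain, and the low place of PSMD6 also depends on the length used. The part of the counting in these 5 genes was not tested.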

How the data were processed

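RNA was sequenced in 12 libraries. Per the labels' protocols, cDNA was made by a modified Smart-seq2 method and libraries by Nextera XT, which do not mark strand. Trimmomatic, STAR, DESeq2 and hg38 are named in the submitters' processing notes. The read counter, with its settings, is not given in the sources used here. The authors deposited 1 table of raw read counts for 20015 genes, of which 19972 IDs matched GENCODE 29 by unversioned ID and 19893 the symbol table.

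Counts were TMM-scaled and tested with edgeR 4.0.16 (R 4.3.3): filterByExpr with a minimum count of 10, 4 group means over 12 libraries, quasi-likelihood F tests (two-sided), Benjamini-Hochberg adjustment over 11323 genes, and a call at an adjusted p under 0.05. SEs come from the F statistic, and intervals are 95%. Alternatives used other scalings and filters, DESeq2 1.42.0, limma-voom 3.58.1, a replicate block, fewer libraries, and mitochondrial genes removed. No 2 libraries of a group were copies (chi-square per degree of freedom 8.64 to 35.8). Nothing says that replicates were separate cultures beyond the word biological, so p-values measure the spread between these samples.

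The members, lists and tests were chosen with earlier results of these data known. Values per library are given for NFE2L1, PSMB5, PSMB6, PSMB7, POMP and up to 6 called members per comparison with the largest change. They are also given, after their values were seen, for PSMC2 and PSMF1, for PSMD3 in QRICH1 KO cells, and for PSMA2 and PSMA6 in WT DMSO. Up to 3 called genes are named per further list and comparison. A result for 1 gene of these lists is not reported here.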

Additional observations from a re-analysis of the deposited data

How the results depend on the processing

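The 13 member calls were recomputed under 23 alternatives each: 258 of 299 values kept their call, 41 lost it, and 0 turned direction. Calls gained were PSMC4 (13 of 23 fits) and PSMD8 (5) higher in WT cells, and PSMD3 lower (8) and UCHL5 higher (5) in QRICH1 KO cells, with the others in 3 fits or fewer. PSMA5 in both genotypes, PSMA3 in QRICH1 KO cells, and PSMD1 and PSMD11 in WT cells kept their call in all 23. In WT cells, members higher numbered 1 with total-count scaling and 3 with upper-quartile factors (5 in the reported fit), and members lower 9 with total-count scaling, 5 without a count filter and 5 without both QRICH1 KO libraries 3 (3 reported). In QRICH1 KO cells, members lower numbered 1 with RLE factors, 5 with total-count scaling and 1 without both libraries 3 (2 reported; the 1 is PSMD3, and 3 rose in that fit).

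Leaving out 1 library at a time gave 2025 to 2760 genes called in WT cells, with 3 to 7 members higher (3 without WT Tm 2 or WT DMSO 2) and 2 to 3 lower. In QRICH1 KO cells it gave 1109 to 1858 genes, with 2 to 4 members higher and 0 to 4 lower. Between genotypes it gave 56 to 160 genes under Tm, 5 to 39 under DMSO and 0 to 4 for the interaction, and 0 members in each.

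Over all genes, QRICH1 KO against WT gave 132 calls under Tm, 279 without a filter and 290 with DESeq2. Under DMSO it gave 11, 138 without a filter, 59 with DESeq2, 17 with the replicate block, 6 with only the groups compared and 59 without both libraries 3. The interaction gave 0, 5 with total-count scaling, 44 without a filter and 46 with DESeq2. No alternative called a member in these 3 comparisons; the cause of these shifts was not tested. The median level of 66.4 CPM per kb became 124 per longest transcript, and TGACNNNGC on the gene's strand alone was in 20.8% of member entries, against 29.2% on either strand.

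Replicate numbers did not pair the libraries across all groups. Deviations of same-numbered libraries correlated at -0.19 to 0.27, over 0.1 in 6 of 18 pairs. Of 12 libraries, 5 correlated best with their own number. Between QRICH1 KO DMSO and QRICH1 KO Tm the same-numbered values were 0.21, 0.0021 and 0.27, and libraries 1 and 3 correlated at -0.24 either way. Between WT DMSO and WT Tm the same-numbered values were -0.14, -0.051 and 0.019. Whether number marks a shared factor in QRICH1 KO cells was not tested. With the replicate block, 1888 genes, 3 members higher and 2 lower were called in QRICH1 KO cells, 2823 genes, 7 higher and 3 lower in WT cells, 161 genes between genotypes under Tm and 0 for the interaction. PSMA6 and PSMA2 had the widest intervals of the 42 members in all 5 comparisons. PCR copies are not independent molecules, so limits from counts cover counting error only.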
